A study of Mus musculus with 8 samples.

Results

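The genes described here encode proteins that bring choline into the cell, commit it to phosphatidylcholine and release it again. There are 8 of them among the 53655 gene symbols of the table. They are 4 choline transporter-like genes (Slc44a1, Slc44a2, Slc44a3 and Slc44a4), the choline kinases Chka and Chkb, the cytidylyl transferase gene Pcyt1a and the phosphatidylcholine lipase gene Pnpla6. The last was chosen by its measured difference between the compared groups, so its values are a description and carry no test. The other 7 were listed for their roles, but with earlier results of these data known.

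The RNA came from small-intestinal tuft cells of mice, chemosensory epithelial cells that release the cytokine IL-25. All cells came from untreated mice of the genotype Il25-RFP/+;Chat-GFP(Tg+), which carry a red reporter of Il25 and a green reporter transgene of Chat, the gene of choline acetyltransferase. CD45-negative, EPCAM-positive, Il25-RFP-positive cells were divided by flow cytometry into cells without green signal (Chat-neg, 4 libraries) and cells with it (Chat-pos, 4 libraries). Each group is therefore defined by a reporter and not by the Chat protein itself, and the sources used here give neither the animals behind each library nor their age or any pooling. P-values therefore rest on the spread among libraries alone, which may be partly technical. In bulk RNA, fewer cells of a type and less RNA per cell cannot be told apart.

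Choline is the shared precursor of acetylcholine and of phosphatidylcholine, the main phospholipid of cell membranes. In the CDP-choline (Kennedy) pathway a kinase phosphorylates choline, a cytidylyl transferase activates the product to CDP-choline, and a phosphotransferase joins it to diacylglycerol. In the other direction, lipases strip the acyl chains from phosphatidylcholine to leave glycerophosphocholine, from which phosphodiesterases free choline. Choline acetyltransferase, whose gene's reporter marks the Chat-pos gate, draws on the same choline.

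Named genes received 87642 counts in Chat-neg replicate 1, 610756 to 1176880 in the other Chat-neg libraries and 1757401 to 2541955 in Chat-pos. The groups therefore differed in depth as well as in the gate. Levels are counts per 1000000 counts in named genes (CPM) after scaling with TMM factors. All 13 tuft cell markers had counts, and their summed level ran from 9997 to 19884 CPM in Chat-neg and from 26867 to 27767 CPM in Chat-pos. Paneth cell markers summed to 60045 and 32513 CPM in Chat-pos replicates 2 and 3, against 485 to 3447 CPM in the other 6 libraries. Markers of other cell types were also present and uneven. The 10 enterocyte markers summed to 19610 to 44699 CPM in Chat-neg and 33037 to 54157 CPM in Chat-pos, 0 of 10 called. In every library that was more than the tuft marker sum, but most of it was 1 gene, Fabp1. Fabp1 alone stood at 15114 to 41007 CPM in Chat-neg and 24083 to 47377 CPM in Chat-pos. The other enterocyte markers together were below the tuft marker sum in every library. The 6 stem and progenitor markers summed to 94.5 to 930 CPM in Chat-neg and 108 to 1055 CPM in Chat-pos, 0 of 6 called. The 7 enteroendocrine markers summed to 518 to 1362 CPM in Chat-neg and 1192 to 1884 CPM in Chat-pos. Only Sct of these was tested, and it rose. Sct also made up most of that sum in every library. The 7 goblet cell markers summed to 414 to 5247 CPM in Chat-neg, highest in replicates 3 and 4, and to 268 to 748 CPM in Chat-pos, and 1 of 6 tested, Clca1, fell. The 9 leukocyte markers summed to 148 to 321 CPM in Chat-neg and to 7.94, 256, 25.1 and 29.0 CPM in Chat-pos replicates 1 to 4, with 0 of 3 tested called. Over all 8919 genes tested, 3.62% rose and 2.87% fell in Chat-pos at a Benjamini-Hochberg adjusted p under 0.05 in edgeR's quasi-likelihood fit, 6.49% in either direction.

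The promoter windows of Pnpla6 and Slc44a4 are shown because these members had the widest separation of the gates. Each window runs from 250 bases before to 50 bases after an annotated start site in RefSeq on GRCm38.p6, written 5′ to 3′, and motifs found on either strand are in capitals. The motifs shown are the GC box, with the letters GGGCGG, and the CCAAT box, named for its letters. The Pnpla6 window shown lies at chr8:3515161-3515460 on the plus strand, and the Slc44a4 window at chr17:34914216-34914515, also on the plus strand.
Pnpla6: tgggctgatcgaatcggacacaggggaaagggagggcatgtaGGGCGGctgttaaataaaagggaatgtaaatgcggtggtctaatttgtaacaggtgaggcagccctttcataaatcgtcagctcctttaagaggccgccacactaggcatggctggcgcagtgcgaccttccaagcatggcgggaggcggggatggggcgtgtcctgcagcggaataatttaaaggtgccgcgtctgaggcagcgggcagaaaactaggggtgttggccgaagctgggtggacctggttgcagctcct
Slc44a4: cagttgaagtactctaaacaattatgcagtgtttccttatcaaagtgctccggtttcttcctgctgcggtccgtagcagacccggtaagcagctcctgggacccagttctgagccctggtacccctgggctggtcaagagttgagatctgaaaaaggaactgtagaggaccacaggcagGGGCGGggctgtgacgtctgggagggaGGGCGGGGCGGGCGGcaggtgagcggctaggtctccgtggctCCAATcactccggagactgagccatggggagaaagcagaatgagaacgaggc
RefSeq gives Pnpla6 3 windows, and the one shown is the only one of them with a GC box. It held 1 GC box and no CCAAT box, a second window held 1 CCAAT box and no GC box, and the other held neither. That of Slc44a4 held 4 GC boxes, of which 3 overlap in 1 run, and 1 CCAAT box that spans the annotated start at 34914466. RefSeq lists 14 windows for the 8 members, some of them overlapping. A GC box was present in 10 of the 14, against 35.7% of all 32851 windows of this length. Counting a gene by any of its windows, this covers all 8. GC content of the 14 windows ran from 51.7% to 80.0%, against a median of 52.7% over all windows. The shares were not matched for it. CCAAT was present in 5 of the 14 (37.4% of all windows) and TATAAA in 1, that of Chkb (13.6%). The octamer ATGCAAAT, known as a binding motif of POU-family factors such as the tuft cell regulator Pou2f3, was in none of the 14 windows and in 1.74% of all windows.

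Pnpla6 encodes neuropathy target esterase, an enzyme of the endoplasmic reticulum that removes both acyl chains from phosphatidylcholine. It lies on the plus strand of chromosome 8 at 3515384 to 3544267 (GRCm38, GENCODE M21) and shares no exon bases with another annotated gene. Its levels were 114, 233, 271 and 295 CPM in Chat-neg replicates 1 to 4. In Chat-pos replicates 1 to 4 they were 759.8, 985, 711 and 821 CPM. Every Chat-pos library was above every Chat-neg library, and the lowest of the former was 2.41 times the highest of the latter. The means were 228 ± 80.4 CPM in Chat-neg and 819 ± 119 CPM in Chat-pos (± is the SD over 4 libraries). The fitted log2 difference was 1.75, given without a test because the gene was selected on it. Among 7915 tested genes averaging 10 CPM or more, this difference ranked 45th from the top. By mean CPM the gene was 517th of all symbols in Chat-neg and 153rd in Chat-pos.

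The shallowest library gave the lowest Pnpla6 level. Its 114 CPM rested on 11 counts, with an exact Poisson 95% interval of 56.9 to 204 CPM that covers counting error only. In Chat-neg replicate 4, with 190 counts, the interval was 255 to 340 CPM, and in Chat-pos replicate 3, the lowest of its group, 676 to 748 CPM from 1532 counts. The fitted log2 difference was 1.62 without Chat-neg replicate 1. Without the 2 Paneth-rich libraries it was 1.80.

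Tuft cell markers moved with Pnpla6. Of the 13 markers, 7 rose and 0 fell in Chat-pos (edgeR, adjusted p under 0.05), among them Il25, whose reporter both gates required. Set against the summed tuft markers, Pnpla6 stood at 14.0 ± 2.35 CPM per 1000 CPM of markers in Chat-neg and 30.1 ± 4.55 in Chat-pos (± is the SD over 4 libraries), 2.16 times as high. On this measure, which was added after the values were seen, the lowest Chat-pos library (26.5) remained above the highest Chat-neg library (17.1). The ratio reuses the Pnpla6 values the gene was selected on and is a description. On the same measure 4 of the 7 other members were wholly lower in Chat-pos, with ratios of the gate means of 0.523 for Slc44a1, 0.584 for Slc44a3, 0.391 for Chkb and 0.493 for Pcyt1a. The gates overlapped for Slc44a2 (0.686), Slc44a4 (1.11) and Chka (0.780). Because the marker sum was itself higher in every Chat-pos library, a gene of equal CPM in both gates comes out lower on this measure. The share of all genes wholly lower on it was not counted, so the 4 are not read as particular to the members.

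The 5 genes whose levels followed Pnpla6 most closely were Nfkbia, H2-D1, Klf3, Nrgn and Prss30. Pearson's r of log2(CPM + 1) with Pnpla6 over the 8 libraries was 0.995, 0.990, 0.989, 0.987 and 0.984, the highest of 7986 genes compared. The libraries behind each r fall into the 2 gates, and all 5 genes, like Pnpla6, were at their lowest in Chat-neg replicate 1, the shallowest library. Nfkbia, which encodes an inhibitor of NF-κB, went from 386 ± 100.3 to 861 ± 119 CPM. H2-D1, an MHC class I heavy chain with near-identical copies, went from 1766 ± 466 to 4328 ± 156 CPM (± is the SD over 4 libraries). Among the other members with enough counts to be compared, r was 0.881 for Slc44a4 (411th), 0.460 for Chka, 0.143 for Slc44a3, -0.0726 for Slc44a1, -0.218 for Pcyt1a and -0.559 for Chkb.

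**Figure D1:**
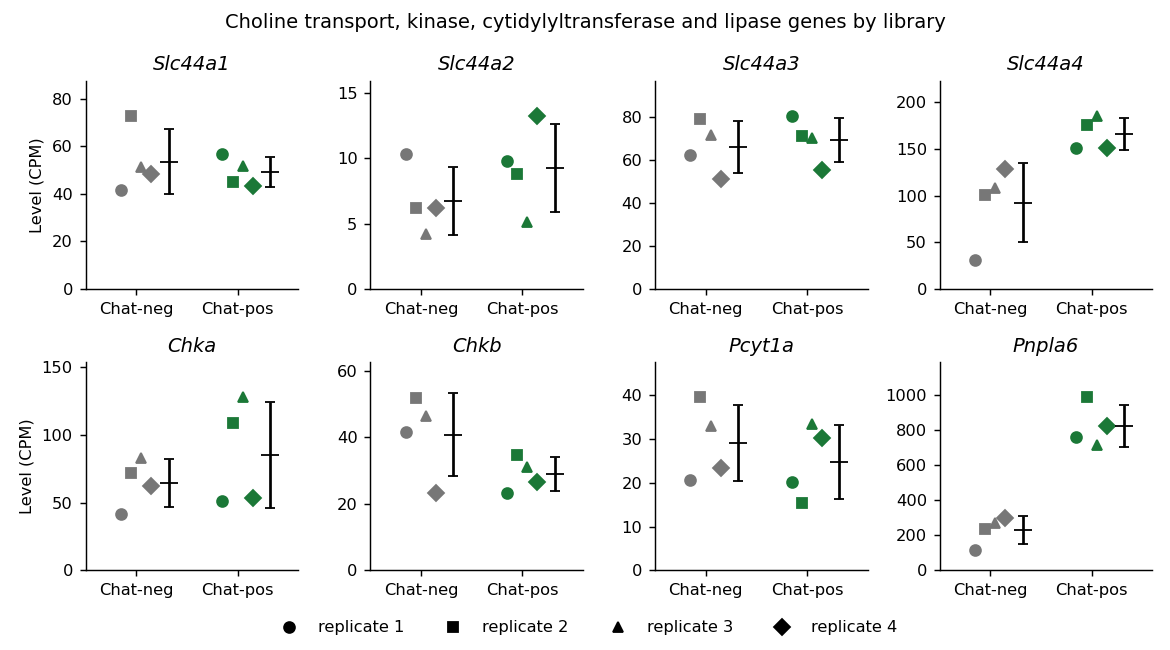
Level (CPM, linear axes from 0) of each of the 8 genes in the 4 Chat-neg libraries (grey) and 4 Chat-pos libraries (green), with 1 symbol per replicate and the mean ± SD at the right of each group. Pnpla6 and Slc44a4 do not overlap between the gates, and Chka is split within Chat-pos, with replicates 2 and 3 at 109 and 128 CPM and replicates 1 and 4 at 51.3 and 53.0 CPM.

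Of the 7 members listed by role, 0 rose and 0 fell in Chat-pos with edgeR, and DESeq2 also called 0. These 7 were not listed blind to earlier results of these data. At an unadjusted p under 0.05 there was 1, Slc44a4, while 20.8% of all genes tested reached that level. The fitted log2 difference was above 0 for 4 members and below 0 for 3. Its median over the 7 was 0.015, and -0.02 over all genes tested. All 8 members passed the filter on low counts. Small changes could have been missed, since in simulated data the fit recovered 2% of 1.5-fold and 40% of 2-fold changes. Those shares are over genes of all levels and not over the members. The simulation also gave 119 calls against 579 in these data, which makes its adjusted threshold stricter, so the shares may not carry over.

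Slc44a4 encodes choline transporter-like protein 4, a membrane protein of epithelia that is known in human cells both for choline uptake linked to acetylcholine synthesis and for uptake of thiamine pyrophosphate. The gene lies on chromosome 17 at 34914466 to 34930436. In Chat-neg replicates 1 to 4 it stood at 31.1, 101, 108 and 129 CPM, and in Chat-pos replicates 1 to 4 at 151, 176, 186 and 152 CPM. All Chat-pos libraries were above all Chat-neg libraries, as for 9.23% of the genes tested (4.72% were wholly lower, 13.9% in either direction). The log2 difference was 0.67 ± 0.22 (SE), with a 95% interval of 0.22 to 1.12, and did not pass over all genes (edgeR adjusted p = 0.0644, and 0.0601 with DESeq2). Over 17 other settings the adjusted p ran from 0.0510 to 0.226 and the log2 difference from 0.55 to 0.89.

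The lowest Slc44a4 value, in Chat-neg replicate 1, came from 3 counts (exact Poisson 95% interval 6.41 to 90.8 CPM). Relative to the summed tuft markers the gates overlapped for this gene, at 5.49 ± 1.81 CPM per 1000 CPM of markers in Chat-neg and 6.09 ± 0.733 in Chat-pos (± is the SD over 4 libraries). Its 2 highest values, 176 and 186 CPM, were in the Paneth-rich libraries, and the log2 difference without both was 0.65 (edgeR adjusted p = 0.226). The part of either marker content in the difference was not tested.

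Slc44a3, a less studied relative of these transporters, differed least. Its levels were 62.2, 79.0, 71.7 and 51.3 CPM in Chat-neg replicates 1 to 4 and 80.6, 71.3, 70.1 and 55.5 CPM in Chat-pos replicates 1 to 4. In CPM the gates overlapped throughout. The log2 difference was 0.015 ± 0.23, with a 95% interval of -0.46 to 0.49 (edgeR adjusted p = 0.986). Its sign turned in 5 of 17 other settings, total count scaling among them, where it was -0.10 while the median of all genes was -0.14. The gene lies on the minus strand of chromosome 3 at 121459528 to 121532404 and shares exon bases with A530020G20Rik on the other strand, which these libraries cannot separate.

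Slc44a1 encodes the widely expressed choline transporter-like protein 1 of the plasma membrane and mitochondria, on chromosome 4 at 53440413 to 53622478. Chat-neg replicates 1 to 4 had 41.4, 72.9, 51.4 and 48.2 CPM, and Chat-pos replicates 1 to 4 had 56.8, 44.9, 51.5 and 43.5 CPM. The highest and the lowest value both lay in Chat-neg, so that the gates overlapped. The log2 difference was -0.22 ± 0.24 with a 95% interval of -0.71 to 0.27 (edgeR adjusted p = 0.672). It shares exon bases with 1700060J05Rik on the other strand.

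Slc44a2, whose product is choline transporter-like protein 2, on chromosome 9 at 21320698 to 21355028, was the scarcest member. It had 1, 5, 5 and 4 counts in Chat-neg replicates 1 to 4 (10.4, 6.17, 4.22 and 6.22 CPM). In Chat-pos replicates 1 to 4 there were 16, 20, 11 and 32 counts (9.77, 8.80, 5.11 and 13.3 CPM). At this depth no difference was detectable, with a log2 difference of 0.67 ± 0.56 and a 95% interval from -0.48 to 1.82 (edgeR adjusted p = 0.554). The fitted size equalled that of Slc44a4, but its error was larger.

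Both choline kinases were measured, and neither passed the test, with differences of opposite sign. Chka (chromosome 19, 3851773 to 3894369) encodes choline kinase alpha, the isoform needed for embryonic development in mice. It stood at 41.4, 71.6, 82.6 and 62.2 CPM in Chat-neg replicates 1 to 4. In Chat-pos replicates 1 to 4 it stood at 51.3, 109, 128 and 53.0 CPM. Chat-pos was thus split, with its highest values in replicates 2 and 3, the 2 libraries with Paneth cell markers at 60045 and 32513 CPM, and its lowest in replicates 1 and 4, where those markers summed to 622 and 485 CPM. Of the 9 Paneth markers all had counts and 0 passed the test between the gates. The log2 difference of Chka was 0.27 ± 0.29 with a 95% interval of -0.32 to 0.86 (edgeR adjusted p = 0.652), and -0.33 without both Paneth-rich libraries (edgeR adjusted p = 0.633). The part of Paneth cell RNA in the Chka values was not tested. Chka shares exon bases with Gm16066 and AC133523.2 on the other strand.

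Chkb encodes choline kinase beta, the isoform whose loss causes muscular dystrophy in mice. It lies on the minus strand of chromosome 15 at 89426360 to 89429908. Its levels were 41.4, 51.9, 46.4 and 23.3 CPM in Chat-neg replicates 1 to 4 and 23.2, 34.8, 31.1 and 26.5 CPM in Chat-pos replicates 1 to 4. Chat-neg replicate 4 fell among the Chat-pos libraries, the other Chat-neg libraries above them. The log2 difference was -0.53 ± 0.29, with a 95% interval of -1.11 to 0.05 (edgeR adjusted p = 0.292). The annotation places the readthrough gene Gm44502 over part of its exons on the same strand and C730034F03Rik on the other, so its counts are uncertain. The ratio of Chka to Chkb counts ran from 1 to 2.67 over the Chat-neg libraries and from 2 to 4.10 over the Chat-pos libraries, and the gates overlapped.

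Pcyt1a encodes the alpha isoform of CTP:phosphocholine cytidylyl transferase, which catalyses the rate-limiting step of the CDP-choline pathway. It lies on chromosome 16 at 32430921 to 32475070. The libraries held 20.7, 39.5, 32.9 and 23.3 CPM in Chat-neg replicates 1 to 4, and 20.2, 15.4, 33.4 and 30.2 CPM in Chat-pos replicates 1 to 4. Values overlapped between the gates, and the log2 difference of -0.35 ± 0.32 had a 95% interval of -1.01 to 0.30 (edgeR adjusted p = 0.587). Some of its exon bases are shared with Slc51a on the other strand.

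**Figure D2:**
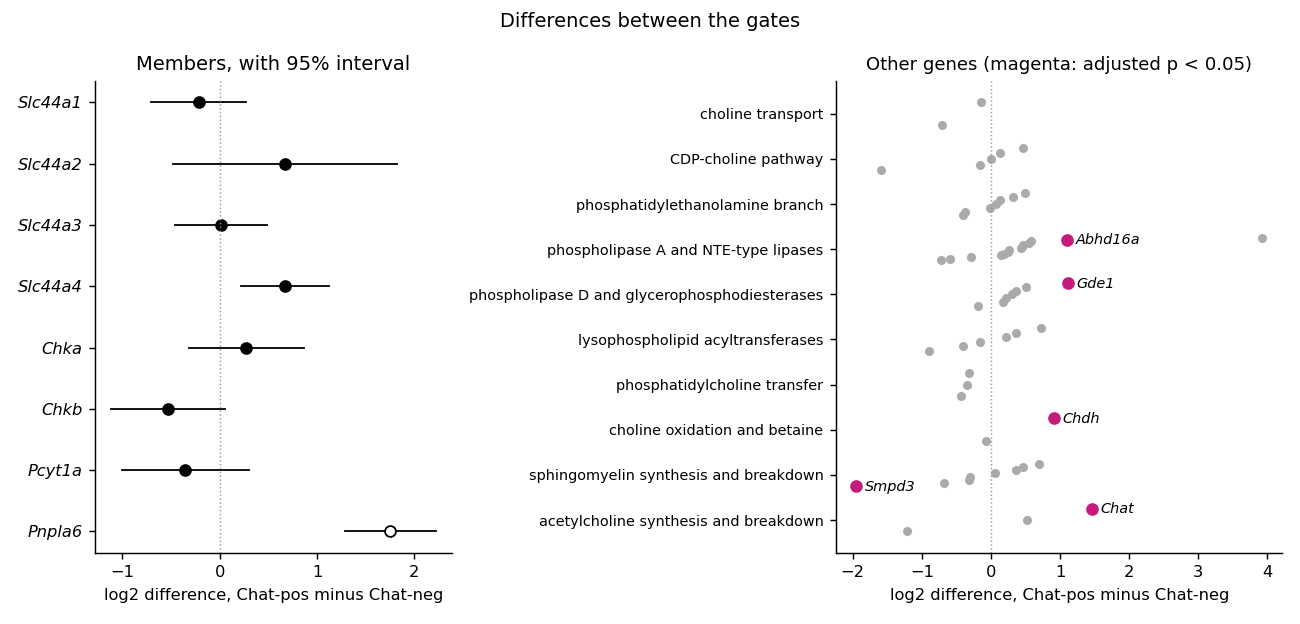
Log2 differences, Chat-pos minus Chat-neg, from the edgeR fit. At the left are the 8 members with their 95% intervals, Pnpla6 open. Pnpla6 was selected on this contrast, so its interval is a description and not a test. At the right are 57 other genes of choline and phospholipid metabolism by list, 1 point per gene. The 5 named genes in magenta have adjusted p under 0.05, and the intervals of 6 of the 7 members listed by role include 0, that of Slc44a4 not.

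Levels of different genes can be compared only per length, here as CPM per kb of annotated exon. On that scale Slc44a4 was the leading member in Chat-neg (29.7 ± 13.7) with Pnpla6 next (23.5 ± 8.29), a gap smaller than either SD. In Chat-pos Pnpla6 led with 84.5 ± 12.3 and Slc44a4 followed with 53.3 ± 5.62 (± is the SD over 4 libraries), and their libraries did not overlap. Slc44a3 (13.1 in Chat-neg and 13.7 in Chat-pos), Chkb (13.3 and 9.44), Slc44a1 (7.70 and 7.08) and Chka (5.36 and 7.08) came next. In Chat-neg the ranges of Slc44a3 and Chkb overlapped, as did those of Slc44a1 and Chka. Pcyt1a (3.93 and 3.35) was lower, and Slc44a2 (0.777 and 1.06) the lowest in both gates.

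The order at the top depended on the length used. Per kb of exon, Pnpla6 exceeded Slc44a4 in 1 of 4 Chat-neg and 4 of 4 Chat-pos libraries. Per kb of the longest coding transcript, 4496 bases for Pnpla6 and 2261 for Slc44a4, it did so in 4 of 4 in both gates. Chka moved most between these scales, since its exons span 12024 bases and its longest coding transcript 2549. Slc44a2 remained the lowest and Pcyt1a the second lowest member on both.

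**Figure D3:**
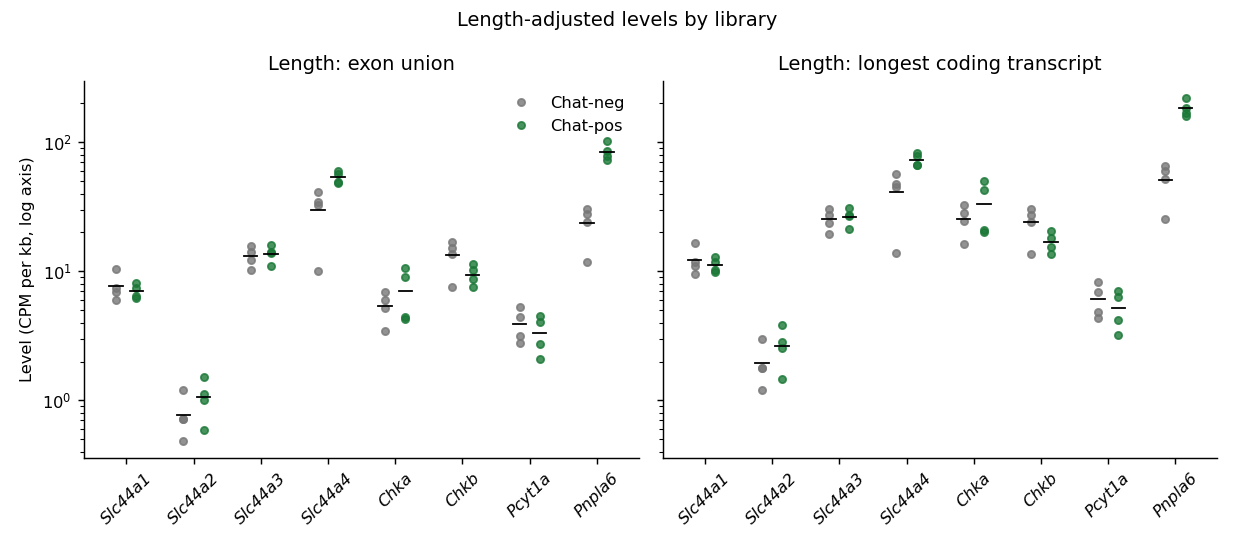
Length-adjusted level (CPM per kb, log axis) of each member in every library, Chat-neg in grey and Chat-pos in green, with bars at the group means, per kb of all annotated exons at the left and of the longest coding transcript at the right. In Chat-pos the Pnpla6 libraries lie above those of all other members on both scales, while Slc44a2 is lowest on both.

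Within the transporter family, Slc44a4 supplied 55.0 ± 15.3% of the summed per-kb level of Slc44a1 to Slc44a4 in Chat-neg and 70.9 ± 3.44% in Chat-pos (± is the SD over 4 libraries). The share was 33.9% in Chat-neg replicate 1, 54.8% to 70.0% in the other Chat-neg libraries and 65.8% to 73.2% in Chat-pos, so that the gates overlapped. Slc44a2 gave at most 4.06% in any library. Of the other transporters listed, Slc5a7, the high-affinity choline transporter of cholinergic neurons, had 1 count in Chat-neg replicate 1 and 0 in the other 7 libraries. A count of 0 allows up to 3 counts, which is 1.24 to 4.66 CPM in those 7 libraries and covers counting error only. Slc44a5 had 0 to 2 counts per library.

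The wider set comprised 99 other genes of choline and phospholipid metabolism in the table, of which 57 passed the filter. Its lists, like the members, were drawn up with earlier results of these data known. Among these 57, 4 rose and 1 fell in Chat-pos, against 3.62% and 2.87% of all genes tested, and the median log2 difference was 0.15. The 4 that rose include Chat, the gene of the gate. In the CDP-choline list 0 of 5 further genes passed with edgeR (1 had an unadjusted p under 0.05). Cept1, which joins CDP-choline or CDP-ethanolamine to diacylglycerol, had the highest per-kb level of that list, 25.0 ± 6.99 over all 8 libraries, and a log2 difference of 0.47 ± 0.23 (edgeR adjusted p = 0.248). Cept1 shares exon bases with Dennd2d on the other strand, so its level is uncertain. Chpt1, which performs the same step for choline, was picked out after its values were seen. It stood at 20.7, 40.8, 43.9 and 20.2 CPM in Chat-neg replicates 1 to 4 and 3.05, 10.1, 3.72 and 27.8 CPM in Chat-pos replicates 1 to 4. Only Chat-pos replicate 4 reached the Chat-neg values. The log2 difference of -1.59 ± 0.62 did not pass (edgeR adjusted p = 0.174), and it was -2.56 without that library (edgeR adjusted p = 0.0011). It passed in 2 of 17 other settings, with adjusted p up to 0.471. Chpt1 shares exon bases with Sycp3 on the other strand.

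Enzymes that take glycerophospholipids apart included 2 genes that rose in Chat-pos. Gde1, a membrane glycerophosphodiester phosphodiesterase best known for acting on glycerophosphoinositol, lies on chromosome 7 at 118688545 to 118705778. Its levels were 72.5, 132, 157 and 134 CPM in Chat-neg replicates 1 to 4 and 315, 279.8, 257 and 313 CPM in Chat-pos replicates 1 to 4. The gates did not overlap, and the log2 difference was 1.12 ± 0.21 (edgeR adjusted p = 0.00104). Per kb it was the most abundant gene of its list, at 73.2 ± 21.3 in Chat-neg and 172 ± 16.5 in Chat-pos (± is the SD over 4 libraries). Gde1 shares exon bases with Gm45236 on the other strand. It was the single gene of 7 tested in the list of phospholipases D and glycerophosphodiesterases to pass. Gpcpd1, whose product splits glycerophosphocholine into choline and glycerol phosphate, had a difference of 0.51 ± 0.21 (edgeR adjusted p = 0.157).

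Abhd16a encodes a lipase that acts on phosphatidylserine, and lies on chromosome 17 at 35089263 to 35102987. It measured 93.2, 249, 277 and 176 CPM in Chat-neg replicates 1 to 4, and 428, 495, 467 and 450.2 CPM in Chat-pos replicates 1 to 4. It rose by 1.10 ± 0.23 on the log2 scale (edgeR adjusted p = 0.00313), the single one of 14 further lipases tested to do so. Relative to the tuft markers, Gde1 was 1.39 times and Abhd16a 1.41 times as high in Chat-pos as in Chat-neg, without overlap, and Pnpla6 2.16 times. Pnpla7, the closest relative of Pnpla6 in the lists, had 1 to 8 counts in the Chat-neg libraries and 8 to 18 in Chat-pos, with a difference of -0.72 ± 0.56 (edgeR adjusted p = 0.516).

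Chdh, choline dehydrogenase of mitochondria, starts the oxidation of choline to betaine. It stood at 41.4, 17.3, 27.8 and 31.1 CPM in Chat-neg replicates 1 to 4 and 46.4, 48.8, 57.1 and 50.9 CPM in Chat-pos replicates 1 to 4. Its rise of 0.92 ± 0.28 on the log2 scale was at the margin (edgeR adjusted p = 0.0439) and passed in 2 of 8 fits that left out 1 library, the library being replicate 1 of Chat-neg or of Chat-pos. It was also lost with DESeq2 (log2 difference 0.97, adjusted p = 0.0609), with total count scaling (0.80, edgeR adjusted p = 0.0870) and without both Paneth-rich libraries (0.96, edgeR adjusted p = 0.129). Over 17 other settings the adjusted p ran from 0.0233 to 0.242 and the log2 difference from 0.72 to 1.11. Chdh shares exon bases with Cacna1d on the other strand. Bhmt, Bhmt2, Dmgdh and Sardh, which act further along that route, did not pass the filter on low counts.

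In the list of sphingomyelin synthesis and breakdown genes and their relatives, Smpd3, neutral sphingomyelinase 2, was the 1 gene of 8 tested to fall. It went from 72.5, 46.9, 16.9 and 26.4 CPM in Chat-neg replicates 1 to 4 to 9.16, 10.6, 6.50 and 9.53 CPM in Chat-pos replicates 1 to 4. These rest on few counts, 7, 38, 20 and 17 in Chat-neg and 15, 24, 14 and 23 in the deeper Chat-pos libraries. The highest value came from 7 counts in the shallowest library. The gates did not overlap, and the log2 difference was -1.95 ± 0.42 (edgeR adjusted p = 0.00417). Without Chat-neg replicate 2 it was -1.69 (edgeR adjusted p = 0.0656). Smpd3 shares exon bases with Prmt7 on the other strand. Summed goblet markers were above every Chat-pos library in 3 of 4 Chat-neg libraries, summed leukocyte markers were below every Chat-neg library in 3 of 4 Chat-pos libraries, and their part in the Smpd3 and Chpt1 values was not tested. Smpdl3a, an acid sphingomyelinase-like phosphodiesterase, had the highest per-kb level of all listed genes, 165 ± 54.5 in Chat-neg and 279.9 ± 26.6 in Chat-pos (± is the SD over 4 libraries), with a log2 difference of 0.69 ± 0.22 (edgeR adjusted p = 0.0517). It passed in 6 of 17 other settings, DESeq2 among them (adjusted p = 0.0112), and its adjusted p ran up to 0.216.

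Chat, the gene whose reporter set the gate, went from 112 ± 24.2 to 325 ± 33.8 CPM (SD, 4 libraries each; log2 difference 1.46 ± 0.21, edgeR adjusted p = 6.28e-05). Its level per kb was 23.8 ± 5.15 in Chat-neg and 69.1 ± 7.20 in Chat-pos, beside 23.5 ± 8.29 and 84.5 ± 12.3 for Pnpla6.

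**Figure D4:**
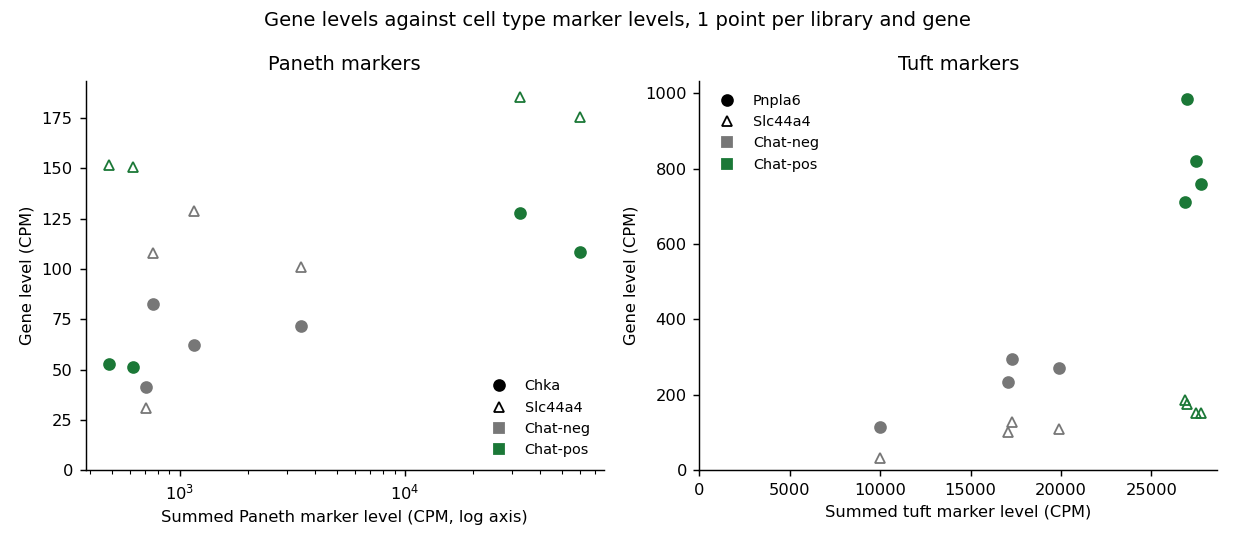
Gene level (CPM) against the summed level of 9 Paneth cell markers (left, log axis, Chka as circles and Slc44a4 as triangles) and of 13 tuft cell markers (right, Pnpla6 as circles and Slc44a4 as triangles), 1 point per library and gene, Chat-neg grey and Chat-pos green. The 2 highest Chka values, 109 and 128 CPM, are in the libraries with 60045 and 32513 CPM of Paneth markers, and the 4 Chat-pos libraries lie at 26867 to 27767 CPM of tuft markers with Pnpla6 between 711 and 985 CPM.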

How the data were processed

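Small-intestinal tuft cells were sorted into lysis reagent, and SMARTer v4 cDNA was turned into Nextera XT libraries for single-end sequencing, per the labels' protocols. Such libraries mark no strand and hold no molecular identifiers. The authors deposited raw counts per gene symbol (build GRCm38, per the submitters' processing notes). Aligner, counter and annotation: not given in the sources used here. Of 53806 rows, 36 named no gene. They held 67.8% to 88.4% of the counts in the Chat-neg libraries and 58.6% to 64.6% in Chat-pos, without overlap. These rows were kept out of library sizes. Rows sharing a symbol were summed.

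Differences were fitted to the counts in edgeR 4.0.16 under R 4.3.3 (TMM, filterByExpr, robust quasi-likelihood fit, group as the only term, Benjamini-Hochberg over 8919 genes, threshold 0.05). The fit was tested on simulated data. There it recovered 2% of 1.5-fold, 40% of 2-fold, 82% of 4-fold and 96% of 8-fold changes, with 9 of 119 calls false. Intervals use the fit's degrees of freedom. Exon lengths came from GENCODE M21. No replicate pair matched within counting noise. Members and lists were chosen with earlier results of these data known. Named genes (30) are the members, Chat, listed genes past the threshold, the 2 with the highest CPM per kb in each list and the 5 most like Pnpla6, with others marked as picked out later or given as counts and examples of a list. Alternatives were other scalings, filters, DESeq2 1.42.0, a replicate block and fits without single libraries.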

Additional observations from a re-analysis of the deposited data

How the results depend on the processing

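Pnpla6 kept its direction in all 17 other settings, with a log2 difference of 1.62 to 1.91 when a single library was left out and up to 1.98 with no filter. The 7 other members gave 0 calls in each direction in all of them, with Slc44a2 below the filter in 3. Over all genes the calls were 323 higher and 256 lower, and 138 to 360 higher and 110 to 309 lower without single libraries. Leaving out replicate 2 of Chat-neg gave both lowest counts. Lower calls numbered 163 and 124 when replicate 3 or 4 of that gate was left out, and 141 without the third Chat-pos library. Calls were 143 lower with no filter, 86 lower without both Paneth-rich libraries (an alternative chosen after the data were seen), and 225 higher against 380 lower with total count scaling. Of the wider set 3 to 5 genes were higher and 0 to 3 lower without single libraries, and 2 were lower with no filter. The sign of Chka turned to -0.33 without both Paneth-rich libraries. Slc44a3, at 0.015, was -0.10 with total count scaling, -0.013 with upper-quartile scaling, and -0.091 to 0.15 without single libraries (below 0 without Chat-neg replicate 4 and, at -0.060, when the first Chat-pos library was left out). The cause was not tested.

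With the replicate number as a block, Slc44a3 was at -0.0078, 290 genes were higher and 230 lower, and the call of Chdh was lost (log2 difference 0.94, adjusted p = 0.0533). Same-numbered libraries did not deviate together (r over genes -0.023 to 0.053), so the numbers were not treated as pairs. Depth limits Chat-neg replicate 1 most, with 1 to 11 counts per member.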

Other observations

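A secreted phospholipase A2 stood out by library and not by gate. Pla2g2a, known as a product of Paneth cells, had 642 and 185 counts in Chat-pos replicates 2 and 3 (282 and 85.9 CPM), the libraries rich in Paneth cell markers, and 1 to 13 counts in each of the other 6. Its difference between the gates did not pass (edgeR adjusted p = 0.345). It was picked out after its values were seen.

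Genes of the ethanolamine branch and of lysophospholipid reacylation were measured without a call. Of 7 tested genes of the former and 6 of the latter, 0 passed with edgeR, and 0 and 1 had an unadjusted p under 0.05. Pcyt2, the cytidylyl transferase for ethanolamine, had the highest per-kb level of its list, 32.6 ± 8.04 CPM per kb over all libraries (SD, n = 8). Lpcat3, an acyltransferase of intestinal lysophosphatidylcholine, led its list with 20.6 ± 4.34 CPM per kb. The phosphatidylcholine transfer list was led by Stard10 (40.8 ± 11.4 CPM per kb), with 0 of 3 tested genes passing (0 at an unadjusted p under 0.05).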
